A study of Mus musculus with 24 samples.

Results

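The cytosolic ribosomal protein genes were followed across 24 mouse spinal cords in which Th17- and Th1-driven experimental autoimmune encephalomyelitis (EAE) was compared. They were taken as every gene whose probe set carries a single gene symbol of the Rpl or Rps form, or Rpsa, Rplp0, Rplp1 or Rplp2, without the S6 kinases, and each gene was read from its probe set with the highest mean. This gave 70 of the 17097 genes measured, of which 24 code for proteins of the small (40S) subunit, 41 for proteins of the large (60S) subunit and 5 are paralogs (Rps27l, Rpl22l1, Rpl7l1, Rpl39l and Rpl3l). Of a list of 79 core subunit genes, 65 were members by this rule.

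Cords came from 4 Th17 recipients and 5 naive mice labelled Act1 KO, and from 5 Th17 recipients, 5 Th1 recipients and 5 naive mice labelled wild type, with 1 array per mouse. By the labels and methods, recipients of either genotype were irradiated with 500 rad and injected with MOG-reactive T cells that had been polarized to Th17 or Th1, whereas naive mice were left untreated, so irradiation and cell transfer go together. All mice were female littermates matched for age, young adults by the methods. No Th1 transfer was made into mice labelled Act1 KO, the KO allele was not described for these arrays, and the paper's heat map names heterozygous mice where the labels say wild type. Cords were taken at the onset of symptoms according to the labels and at the peak of disease according to the paper. Act1, encoded by Traf3ip2, is the adaptor that carries the IL-17 receptor signal. Its probe set read 5.59 to 5.83 in Th17 recipients and 5.38 to 5.92 in naive mice labelled Act1 KO, against 5.14 to 5.56 in Th17 recipients and 4.07 to 4.60 in naive mice labelled wild type. The naive mice labelled Act1 KO were thus higher by 1.27 ± 0.11 (log2 difference ± SE; limma, adjusted p = 4.66e-08), a direction opposite to a loss of the transcript, and whether the probes lie outside the deleted part was not tested. Genotype is therefore given as labelled throughout.

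Ribosomal proteins assemble with ribosomal RNA into the small subunit, which decodes the mRNA, and the large subunit, which joins the amino acids. Their mRNAs are among the most abundant of most cells and are known for a 5′ terminal oligopyrimidine (TOP) tract, a C followed by a run of C and T at the very start of the transcript, through which the kinase mTOR controls their translation. Because each ribosome holds most of the core proteins in equal numbers, their genes tend to be expressed together, while paralogs such as Rpl3l and Rpl39l are known for restricted tissues such as muscle and testis.

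The windows around the annotated transcript starts of 6 members are printed because these genes mark the high and low ends of the range described next. They are 30 bases of the RefSeq annotation of GRCm38.p6, read 5′ to 3′ on the gene's strand with the first transcribed base at position 16, and capitals mark a C with at least 4 further pyrimidines that begins between 5 bases before and 10 bases into the transcript.
Rplp0 (chr5:115559452-115559481, + strand): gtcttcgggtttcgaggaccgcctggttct
Rps18 (chr17:33955651-33955680, - strand): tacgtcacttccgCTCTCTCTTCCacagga
Rpl12 (chr2:32961697-32961726, + strand): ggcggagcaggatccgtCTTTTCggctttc
Rps6 (chr4:86857353-86857382, - strand): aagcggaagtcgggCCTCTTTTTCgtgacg
Rpl22l1 (chr3:28805493-28805522, + strand): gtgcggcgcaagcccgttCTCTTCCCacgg
Rps15a (chr7:118116133-118116162, - strand): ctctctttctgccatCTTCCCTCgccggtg
The table of starts held 67 for 56 of the 70 members. A pyrimidine run of this kind stood near 50.7% of the members' starts and 23.2% of all 32851 listed starts, and exactly at the annotated first base in 16.4% of the members' starts and 2.51% of all. In the 300 bases around the start, the letters CCGGAAG occurred on either strand in 38.8% of the members' regions and 8.86% of all, GGGCGG in 59.7% and 35.7%, AAGATGG in 16.4% and 6.34%, and TATAAA in 10.4% and 13.6%. The median log2 difference of Th17 recipients from naive mice was 0.46 in the 32 members with a run near a listed start and 0.40 in the 24 without. For Th1 recipients these medians were 0.53 and 0.44. For a run exactly at the first base the order was the opposite, at 0.37 in the 11 members with it and 0.42 in the 45 without, and for Th1 recipients 0.41 and 0.48. Rps27l, the largest difference, had a run near a listed start and none near its other listed start. The window of Rplp0, the second largest difference, held no such run. That of Rps15a, the lowest and read from a dim probe set, held a run at its first base. All these starts are annotated ones, and where transcripts begin in these cords was not tested. The runs therefore do not sort members into those with and without a TOP tract, Rplp0 included.

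In wild-type mice, ribosomal protein mRNAs were higher in the cords of both kinds of recipients. Averaged over the 70 genes, the log2 level on the authors' RMA scale was 10.69 to 10.83 in the 5 Th17 recipients and 10.72 to 10.90 in the 5 Th1 recipients, against 10.28 to 10.42 in the 5 naive mice. Every recipient lay above every naive mouse, and the Th17 and Th1 recipients overlapped. As a share of the summed linear signal of all genes the members made up 6.61% ± 0.20 in Th17 recipients and 6.83% ± 0.33 in Th1 recipients, against 5.10% ± 0.16 in naive mice (SD, n = 5 each). Since these were whole cords, more cells rich in these mRNAs and more of the mRNA per cell cannot be told apart.

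**Figure D1:**
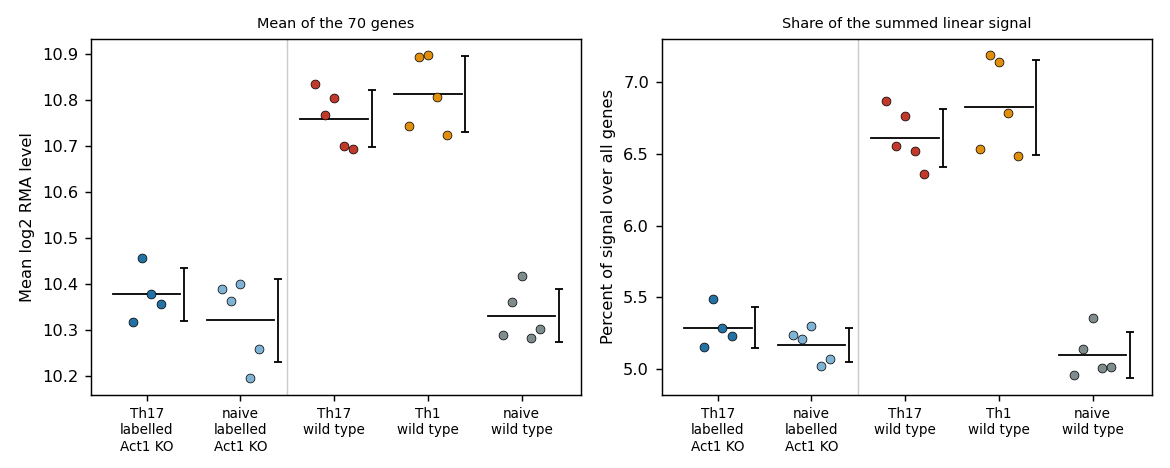
Mean log2 level of the 70 ribosomal protein genes (left) and their percent of the summed linear signal of all genes (right), with 1 point per array, a line at the group mean and a bar of ± 1 SD. Wild-type Th17 and Th1 recipients sit at means of 10.69 to 10.90, above every other array, while Th17 recipients labelled Act1 KO lie at 10.32 to 10.46, with 3 of 4 within the range of the naive mice and 1 just above it.

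In Th17 recipients 56 of the 70 members were called higher than in naive mice and 1 was called lower (limma over all genes, adjusted p under 0.05), beside 18% of all 17097 genes called higher and 25.5% called lower. The median log2 difference was 0.40 over the members, or 1.32-fold, and -0.05 over all genes. The 5 Th17 recipients lay wholly above the 5 naive mice for 49 members, where 15% of all genes did so. Of the small subunit genes 20 of 24 were called higher, of the large subunit genes 34 of 41, and of the paralogs 2 of 5, with medians of 0.45, 0.40 and 0.23. When every array was set to the same median over all genes, which lowers all differences of Th17 recipients from naive mice by 0.26, the median of members was 0.14 against -0.31 for all genes. Under this centring 31 members were called higher and 4 lower, beside 2124 and 11213 of all 17097 genes.

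In Th1 recipients 62 members were called higher and 1 lower, where 16.7% of all genes were called higher and 24.1% lower. The median log2 difference was 0.45, or 1.36-fold, beside -0.06 over all genes. The recipients lay wholly above the naive mice for 58 members and for 14.1% of all genes. Small subunit genes were called higher in 22 of 24 cases and large subunit genes in 38 of 41. The same naive mice served both comparisons. Centring on the median of all genes lowered these differences by 0.25 and left a median of 0.20, against -0.31 over all genes, with 40 members called higher and 3 lower. Of all genes 1977 were then called higher and 11307 lower.

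**Figure D2:**
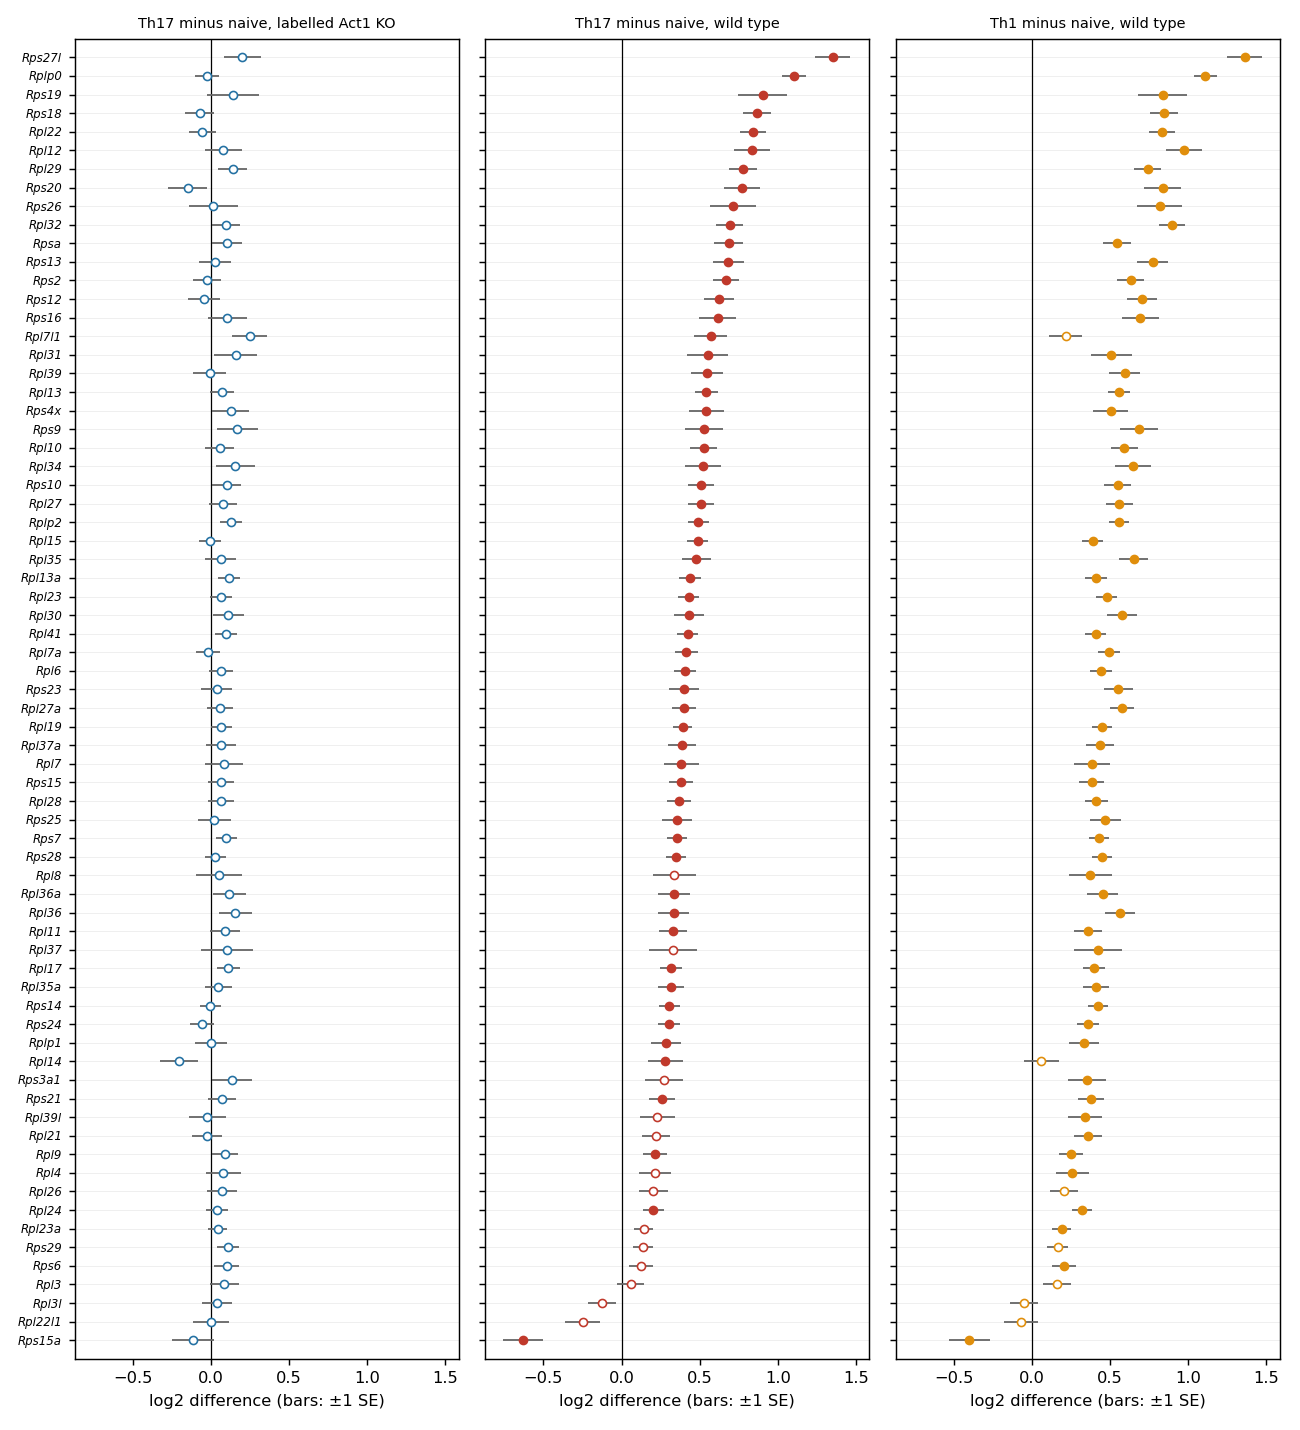
Log2 difference between recipients and naive mice for each of the 70 genes (rows, ordered by the Th17 difference in wild-type mice), with bars of ± 1 SE and filled points for adjusted p under 0.05. In wild-type mice the points run between -0.63 and 1.35 for Th17 and between -0.40 and 1.36 for Th1 recipients, nearly all right of 0. Their medians of 0.40 and 0.45 fall to 0.14 and 0.20 when arrays are centred on the median of all genes, beside -0.31 over all genes in both. In mice labelled Act1 KO none is filled.

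The ribosomal stalk, which recruits elongation factors to the large subunit, held the largest difference among the core proteins. Rplp0, the anchor of the stalk and a common reference transcript in PCR assays, read 11.78, 11.60, 11.81, 11.68 and 11.80 in Th17 recipients and 11.78, 11.71, 11.78, 11.77 and 11.66 in Th1 recipients, against 10.70, 10.62, 10.53, 10.54 and 10.76 in naive mice. All 10 recipients were brighter than the brightest naive mouse. The difference was 1.10 ± 0.07 in Th17 recipients (2.15-fold, adjusted p = 1.82e-12) and 1.11 ± 0.07 in Th1 recipients (2.16-fold, adjusted p = 1.84e-12). Its partners on the stalk differed less, with Rplp2 at 0.49 ± 0.06 and 0.56 ± 0.06 in Th17 and Th1 recipients and Rplp1 at 0.28 ± 0.10 (adjusted p = 0.0185) and 0.34 ± 0.10 (adjusted p = 0.00595). Rplp1 was the only one of these 3 whose recipients overlapped with the naive mice, and its Th17 call was lost without naive mouse 4 (0.22, adjusted p = 0.0717) or naive mouse 1 (0.25, adjusted p = 0.0504), with the exact Mann-Whitney test (adjusted p = 0.0712) and under centring on the median of all genes (0.03). Its Th1 call was lost under that centring too (0.09, adjusted p = 0.431). Rpl12, at the base of the stalk, was higher by 0.84 ± 0.11 in Th17 and 0.97 ± 0.11 in Th1 recipients, the largest of the core genes after Rplp0 in Th1 recipients.

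In the small subunit, Rps18, a protein of its head, read 11.50, 11.26, 11.47, 11.22 and 11.35 in Th17 recipients and 11.33, 11.23, 11.52, 11.37 and 11.25 in Th1 recipients, against 10.50, 10.41, 10.36, 10.58 and 10.63 in naive mice. No recipient reached down to the highest naive mouse. Its differences were 0.86 ± 0.09 for Th17 recipients (adjusted p = 7.02e-09) and 0.84 ± 0.09 for Th1 recipients (adjusted p = 1.36e-08). Rps19, needed for maturation of the small subunit and mutated in human Diamond-Blackfan anaemia, was higher by 0.90 ± 0.16 and 0.84 ± 0.16 and varied more within groups, at 10.82 to 11.43 in Th17 recipients and 10.85 to 11.43 in Th1 recipients against 10.00 to 10.60 in naive mice. Rps20 was higher by 0.77 ± 0.12 and 0.84 ± 0.12, and Rpsa, also known as the laminin receptor, by 0.69 ± 0.09 and 0.54 ± 0.09. Rps18 and Rps20 were read from probe sets of a type that can bind several transcripts. Rps18 had no probe set outside this type and the related one shared by gene families. The part of other transcripts in these values was not tested.

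Rps6, the substrate of the S6 kinases downstream of mTOR, was at the low end of the range. It read 12.39, 12.22, 12.38, 12.13 and 12.30 in Th17 recipients and 12.31, 12.31, 12.53, 12.32 and 12.34 in Th1 recipients, against 12.22, 12.14, 12.15, 12.11 and 12.18 in naive mice. The Th17 recipients overlapped with the naive mice and the Th1 recipients lay just above them. The differences were 0.12 ± 0.08 (adjusted p = 0.210) and 0.20 ± 0.08 (adjusted p = 0.0333). The Th1 call was lost when Th1 recipient 3 (0.16, adjusted p = 0.113) or naive mouse 2, 3 or 4 was left out (0.19 to 0.20, adjusted p = 0.0558 to 0.0691), and its sign turned under centring on the median of all genes (-0.05). Another probe set of Rps6, the one with the largest variance, gave 0.53 for Th17 recipients (adjusted p = 8.04e-04). Rpl3, a protein of the peptidyl transferase centre, at 0.06 ± 0.09 and 0.16 ± 0.09, and Rps29, at 0.14 ± 0.07 and 0.16 ± 0.07, were not called in either comparison. Members not called in Th17 recipients numbered 13, and 10 of them were core genes with differences between 0.06 and 0.34.

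Among the 65 core members, those with lower levels in naive cords tended to have larger differences. The median difference was 0.52 in the dimmer members and 0.35 in the brighter ones for Th17 recipients, and 0.57 and 0.41 for Th1 recipients. Spearman's rho between the naive level and the difference was -0.50 and -0.56 across these genes, whereas Pearson's r was 0.04 and 0.06. Rps15a and Rpl14 lie far below the other core genes in level, and their part in this gap was not tested. The points are genes read on the same arrays and the naive level enters both axes, so no p is given. Levels of different probe sets on an array are not a measure of mRNA number, and the part of probe response at bright spots was not tested.

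**Figure D3:**
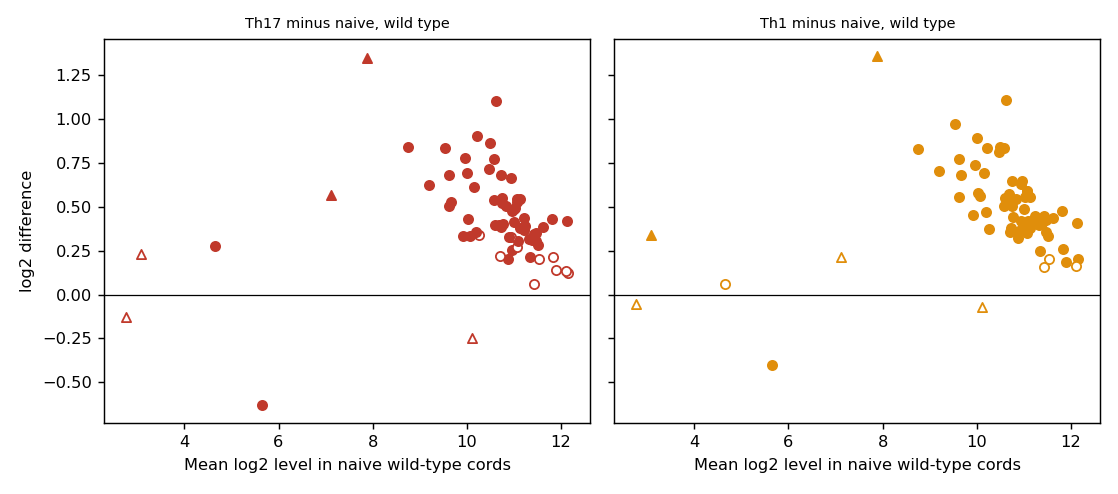
Log2 difference of Th17 (left) and Th1 (right) recipients from naive wild-type mice against the mean log2 level in naive wild-type cords, for 65 core genes (circles) and 5 paralogs (triangles), filled where the adjusted p was under 0.05. Within the dense cloud of bright genes the difference falls as the level rises (Spearman's rho -0.50 and -0.56 over the core genes), and the dim genes to the left do not follow it.

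Rps15a, a small subunit protein, was the member called lower in both comparisons. Its probe set read 4.89, 5.33, 4.96, 4.99 and 4.87 in Th17 recipients and 5.25, 4.90, 5.32, 5.34 and 5.39 in Th1 recipients, against 5.78, 5.60, 5.47, 5.70 and 5.64 in naive mice. All recipients were lower than all naive mice. The difference was -0.63 ± 0.13 in Th17 recipients (adjusted p = 2.10e-04) and -0.40 ± 0.13 in Th1 recipients (adjusted p = 0.0139), and the second fell to -0.32 (adjusted p = 0.0581) without Th1 recipient 2. It was the only probe set with the single symbol Rps15a, and with that of Rpl14, at 4.60 to 4.75 in naive mice, it was the dimmest of the core genes. Both read far below the naive mean of 8.75 of Rpl22, the next dimmest core member, and what these probe sets bind was not tested. Rpl14, a large subunit protein, was higher by 0.28 ± 0.11 in Th17 recipients (adjusted p = 0.0483), and its value in Th1 recipients was 0.06 ± 0.11.

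The paralogs did not move as a set. Rps27l, a close copy of Rps27 whose human gene is a target of p53, had the largest difference of all members. It read 9.31, 9.22, 9.45, 9.001 and 9.16 in Th17 recipients and 9.24, 9.64, 9.24, 8.98 and 9.08 in Th1 recipients, against 7.81, 7.88, 8.09, 7.70 and 7.90 in naive mice. Recipients and naive mice were separated by almost 1 log2 unit. The difference was 1.35 ± 0.11 (2.55-fold, adjusted p = 1.40e-10) and 1.36 ± 0.11 (2.57-fold, adjusted p = 1.46e-10). Its other probe sets gave 1.30 and 1.11 for Th17 and 1.16 and 1.20 for Th1 recipients, and the part of Rps27, which is close to it in coding sequence and not among the members, in these signals was not tested.

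Rpl22, an RNA-binding protein of the large subunit that αβ T cell development requires in mice, and its paralog Rpl22l1 differed from each other. Rpl22 read 9.51, 9.54, 9.70, 9.70 and 9.50 in Th17 recipients and 9.53, 9.64, 9.63, 9.55 and 9.56 in Th1 recipients, against 8.70, 8.80, 8.76, 8.73 and 8.78 in naive mice. Recipients and naive mice did not overlap, with differences of 0.84 ± 0.08 (adjusted p = 3.09e-09) and 0.83 ± 0.08 (adjusted p = 4.61e-09). Rpl22l1 read 9.99, 10.14, 9.77, 9.51 and 9.96 in Th17 recipients and 9.94, 10.21, 10.08, 10.21 and 9.83 in Th1 recipients, against 10.03, 10.13, 10.23, 10.19 and 10.05 in naive mice. These overlapped, and the values were -0.25 ± 0.11 (adjusted p = 0.0685) and -0.07 ± 0.11 (adjusted p = 0.679). The Th17 value passed the threshold under 6 of the alternatives, among them without Th17 recipient 2 (-0.32, adjusted p = 0.0244) and centring on the median of all genes (-0.51). A second probe set of Rpl22 gave -0.33 for Th17 recipients (adjusted p over probe sets = 0.0259), the reverse of the one used.

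Of the other paralogs, Rpl7l1, related to Rpl7, was higher by 0.57 ± 0.10 in Th17 recipients (adjusted p = 5.75e-05) and stood at 0.21 ± 0.10 in Th1 recipients (adjusted p = 0.110). The Th1 value of Rpl7l1 depended on the probe set, and it was called higher with the mean of its sets (0.23, adjusted p = 0.0105) and with the set of largest variance (0.41, adjusted p = 0.00333). Rpl39l was at 0.23 ± 0.11 in Th17 recipients (adjusted p = 0.0981), or 0.33 without Th17 recipient 5 (adjusted p = 0.0100), and higher by 0.34 ± 0.11 in Th1 recipients (adjusted p = 0.0143), with naive levels of 2.94 to 3.23 that lie under every array's median of all probe sets. Rpl3l, known from striated muscle, was at -0.13 ± 0.09 and -0.05 ± 0.09 and dimmer still, at 2.64 to 2.89 in naive mice. Under centring on the median of all genes Rpl3l was called lower in both comparisons (-0.38 and -0.30) and the Th1 call of Rpl39l was lost (0.09).

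**Figure D4:**
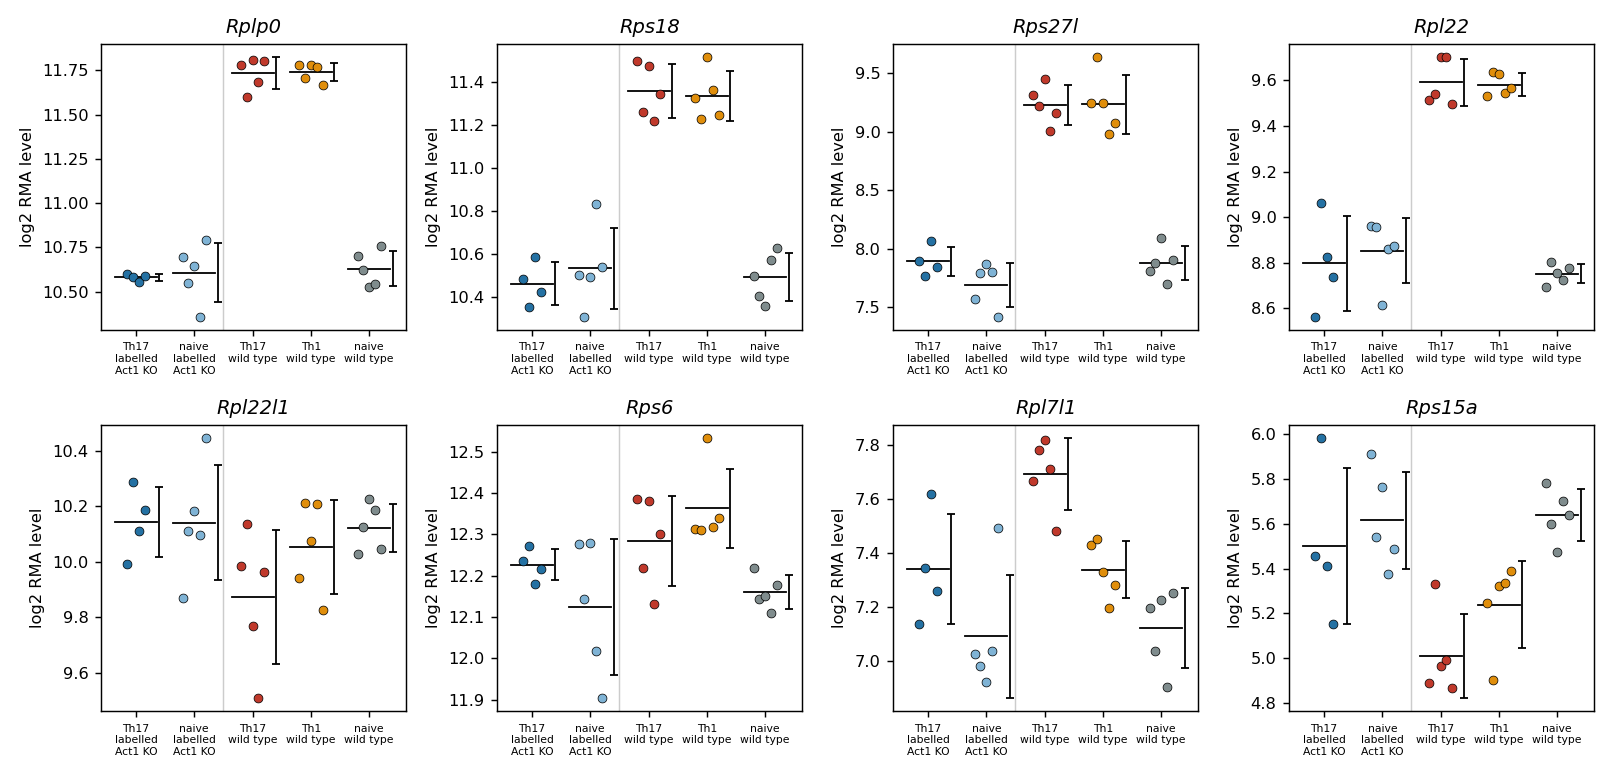
Log2 RMA level of 8 members on each array, with 1 point per mouse, a line at the group mean and a bar of ± 1 SD. Rplp0, Rps18, Rps27l and Rpl22 separate wild-type recipients from every other array, Rpl22l1 and Rps6 overlap between Th17 recipients and naive mice, Rpl7l1 is higher in wild-type Th17 recipients (7.48 to 7.82) than in every Th1 recipient and naive wild-type mouse and Rps15a is lower in wild-type recipients than in naive wild-type mice.

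Th17 recipients did not differ from Th1 recipients in any member by the same test, where 1.91% of all genes were called higher and 1.09% lower. An unadjusted p under 0.05 was found for 4 members. The methods' t-test after Benjamini-Hochberg called 0 members, and 52 of all genes higher and 17 lower. The exact Mann-Whitney test called 0 of all genes. Its smallest p with 5 against 5 mice is 0.00794, too large for a call where few genes reach it, so it cannot decide about the members here. The median difference was -0.06, with 55 of the 70 values below 0. Rpl7l1 came closest, at 7.67, 7.78, 7.82, 7.71 and 7.48 in Th17 recipients against 7.43, 7.45, 7.33, 7.20 and 7.28 in Th1 recipients. It was the only member whose Th17 recipients lay wholly above the Th1 recipients, as they did for 330 of all 17097 genes. The difference of 0.36 ± 0.10 had an adjusted p of 0.0679. It was 0.41 without Th17 recipient 5 (adjusted p = 0.0409) and 0.38 with array weights (adjusted p = 0.0142), but 0.21 over the mean of its probe sets (adjusted p = 0.124) and 0.11 by the set with the largest variance (adjusted p = 0.869). Further out on the high side were Rpl14 (0.22 ± 0.11), Rpsa (0.14 ± 0.09), Rpl15 (0.10 ± 0.07) and Rps19 (0.07 ± 0.16), and on the low side Rps15a (-0.23 ± 0.13), Rpl36 (-0.23 ± 0.10), Rpl32 (-0.20 ± 0.08), Rpl22l1 (-0.18 ± 0.11) and Rpl27a (-0.17 ± 0.08). For Rplp0 the difference was -0.01 ± 0.07.

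In mice labelled Act1 KO the members of Th17 recipients stayed near those of naive mice. The mean over members was 10.32 to 10.46 in the 4 Th17 recipients and 10.19 to 10.40 in the 5 naive mice labelled Act1 KO, and the groups overlapped. No member was called (0% of all genes were called higher and 0% lower), and 1 member, of 1070 genes in all, had an unadjusted p under 0.05. The methods' t-test and the exact Mann-Whitney test after Benjamini-Hochberg called 0 of all genes. With 4 against 5 mice the smallest p of the exact test is too large for a call where few genes reach it, so it cannot decide about the members here. The median difference was 0.07, and -0.00104 without naive mice 4 and 5 of this genotype, whose arrays had the lowest 99th percentiles of all 24 (10.46 and 10.50, against 10.55 to 10.69). Rplp0 read 10.60, 10.58, 10.56 and 10.59 in Th17 recipients and 10.69, 10.55, 10.65, 10.36 and 10.79 in naive mice labelled Act1 KO, a difference of -0.03 ± 0.08. The largest values were those of Rpl7l1 (0.25 ± 0.11), Rps27l (0.20 ± 0.12), Rps9 (0.17 ± 0.13), Rpl31 (0.16 ± 0.14) and Rpl36 (0.16 ± 0.10), and the smallest those of Rpl14 (-0.21 ± 0.12), Rps20 (-0.15 ± 0.13), Rps15a (-0.12 ± 0.14), Rps18 (-0.07 ± 0.09) and Rps24 (-0.06 ± 0.08).

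Between genotypes, naive mice labelled Act1 KO and naive wild-type mice did not differ in any member by this test, with 0 members at an unadjusted p under 0.05, while 0.164% of all genes were called higher and 0.421% lower. The methods' t-test called 0 members, and 4 of all genes higher and 7 lower. The exact Mann-Whitney test called 0 of all genes and cannot decide about the members here, for the same reason as above. The median difference was -0.01 and the extremes were -0.19 and 0.24. Th17 recipients labelled Act1 KO were lower than wild-type Th17 recipients in 50 members and higher in 1, where 17.6% of all genes were called lower and 24.6% higher. The median was -0.36 over members and 0.06 over all genes. The member called higher was Rps15a (0.49, adjusted p = 0.00459), and its call was lost with the title letter as a block, the exact Mann-Whitney test and the methods' t-test. Centring each array on the median of all genes raised these differences by 0.27 and changed the counts to 22 lower and 8 higher, with a median of -0.09. Over all genes the median was then 0.33, with 2067 called lower and 11264 higher.

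The response itself also differed between labelled genotypes. The difference of Th17 recipients from naive mice was smaller in mice labelled Act1 KO than in wild-type mice for 39 members and larger for 1 (interaction term), beside 13.8% and 18.2% of all genes. With the title letter as a block the counts were 25 and 0. The median of the term was -0.33, and under centring on the median of all genes -0.08 with 13 lower and 3 higher. Over all genes the median under that centring was 0.29, with 1740 lower and 7364 higher. The largest were Rps27l (-1.15 ± 0.16, adjusted p = 3.57e-06), Rplp0 (-1.13 ± 0.11, adjusted p = 4.04e-09), Rps18 (-0.94 ± 0.13, adjusted p = 2.09e-06), Rps20 (-0.92 ± 0.17, adjusted p = 1.26e-04) and Rpl22 (-0.90 ± 0.12, adjusted p = 1.33e-06). For Rps18 and Rps20 this was read from probe sets of a type that can bind several transcripts, and Rps18 had none to set beside it, as said above. For Rps20 another bright set of that type gave -0.56 (adjusted p = 0.0130). The sets of other types for Rps20, with means of 3.48 and 3.23 near or under the array medians, gave no call (-0.25, adjusted p = 0.404). The single higher gene was Rps15a (0.52 ± 0.19, adjusted p = 0.0369), and its call was lost under 15 of the alternatives. The direction of these genotype differences rests on the labels. Traf3ip2 mRNA was not lower in cords labelled Act1 KO, and whether its probes lie outside the deleted part was not tested.

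Markers of several immune cell types and of dividing cells also differed between these groups. The summed linear level of 7 monocyte and macrophage markers was 2733 to 3612 in Th17 recipients and 2326 to 3098 in Th1 recipients, against 74.8 to 82.9 in naive mice, and 7 of 7 were called higher in both. The sum of 8 T cell markers was 498 to 625 and 411 to 478, against 57.0 to 61.1, with 8 of 8 called higher, and in naive mice all 8 had group means under the array median. Neutrophil markers reached 728 to 1504 and 194 to 368, against 51.6 to 70.5, and were called higher for 6 and 5 of 6. Of 5 genes of dividing cells, all 5 were called higher in both, with sums of 231 to 387 and 125 to 370 against 39.5 to 46.0. Of 6 B and plasma cell markers 2 and 1 were called higher. Among resident cells, 8 of 8 neuron markers and 6 of 7 oligodendrocyte markers were called lower in both. Of 5 microglia markers, Tmem119 was called higher in both (1.96 and 2.16), and 4 and 3 were called lower. Astrocyte markers were called higher for 4 and 3 of 7 and lower for 2 and 2. In Th17 recipients labelled Act1 KO the same sums were 73.3 to 82.6 for monocytes and macrophages and 61.1 to 70.3 for T cells. In naive mice of that label they were 74.5 to 87.7 and 57.9 to 66.8. None of the markers of any cell type was called there, and 0 of all 17097 genes were. Genotype and the amount of cells with these markers therefore cannot be told apart in these mice. The part of these cells in the ribosomal protein values was not tested.

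Other genes of the translation machinery were read from lists in the same fit. Over all genes 18% and 16.7% were called higher and 25.5% and 24.1% lower in Th17 and Th1 recipients. Of 20 initiation factors and related genes, 13 were called higher and 0 lower in both kinds of recipients, with medians of 0.28 and 0.32. Eif4ebp1, the repressor of the cap-binding factor, was higher by 3.26 ± 0.17 and 2.99 ± 0.17, Pabpc1, the poly(A)-binding protein, by 1.34 and 1.48, the helicase Eif4a1 by 1.03 and 0.77, and Eif1a, which acts in start codon selection, by 1.20 and 1.15. Of 9 elongation factors 3 and 4 were called higher, among them Eef1d (0.43 in both), Eef1b2 (0.52 and 0.56) and Eef1a1 (0.32 and 0.35), whereas Eef1a2, the isoform of neurons and muscle, was lower at -0.53 and -0.42. Outside the rule for members, Fau, the precursor of a small subunit protein, was higher by 0.57 and 0.64 and Rpl36al by 0.52 and 0.57. Btf3 and Naca, partners of the nascent chain, were higher in Th1 recipients (0.39 and 0.27), and their values in Th17 recipients were 0.28 and 0.10.

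Genes that make ribosomes, and those of the mitochondrial ribosome, had genes called in both directions. The shares over all genes were 18% and 16.7% called higher and 25.5% and 24.1% called lower, and many of the counts that follow lie near or below these. Of 38 assembly factors 10 and 9 were called higher and 4 and 4 lower in Th17 and Th1 recipients, with medians of 0.05 and -0.02. Nhp2 (0.79 and 0.60) and Fbl (0.65 and 0.58), both of the small nucleolar particles that modify ribosomal RNA, Heatr1 (0.80 and 0.61) and Npm1 (0.36 and 0.43) were among those higher, and Nolc1 (-0.54 and -0.31) was lower in both. Of 13 genes of RNA polymerase I and its factors, 3 and 1 were called higher and 1 and 2 lower, with Polr1d higher at 0.49 and 0.52 and Taf1a lower at -0.35 and -0.35. Of 18 genes of mTOR and TOP control 4 and 4 were called higher and 6 and 7 lower, Eif4ebp1 and Myc (1.37 and 1.04) among those higher and Mtor (-0.54 and -0.45) among those lower. Of 73 mitochondrial ribosomal protein genes, 6 and 3 were called higher and 11 and 15 lower, with medians of -0.09 and -0.12. Mrps31 (-0.53 and -0.37) and Mrps5 (-0.57 and -0.51) were lower in both, and Mrpl52 (0.63 and 0.44) and Mrpl33 (0.38 and 0.30) were higher. In Th17 recipients labelled Act1 KO 0 genes of these lists were called against naive mice of that label. As 0 of all 17097 genes were called there, this says nothing particular about the lists.

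**Figure D5:**
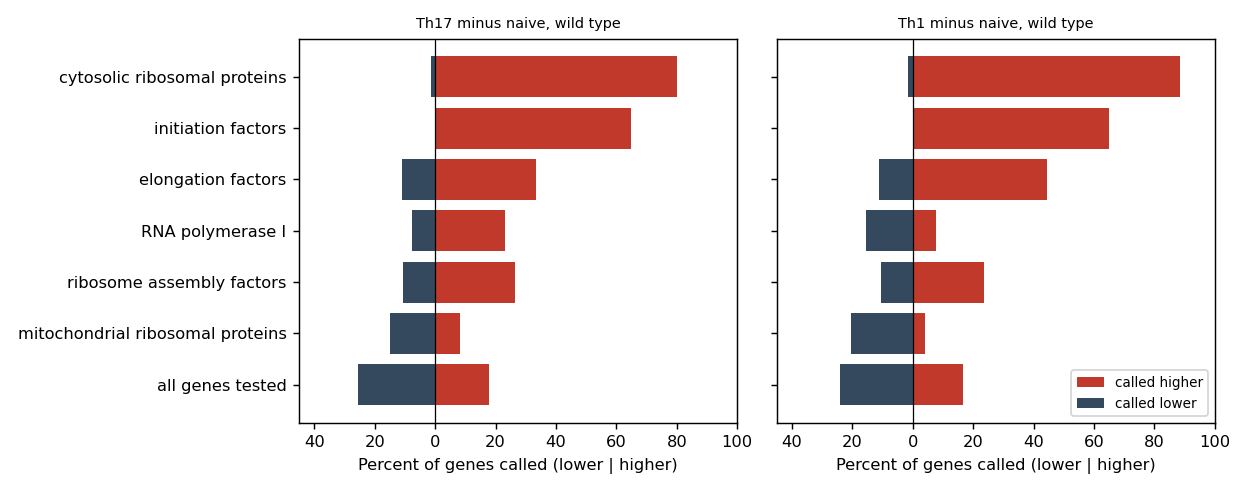
Percent of the genes of each list called higher (right of 0) or lower (left of 0) in Th17 (left panel) and Th1 (right panel) recipients against naive wild-type mice. Cytosolic ribosomal proteins reach 80% and 88.6% called higher and 1.43% called lower, against 18% and 16.7% of all genes called higher and 25.5% and 24.1% called lower. Mitochondrial ribosomal proteins, like all genes, have more genes called lower (11 and 15 of 73) than higher (6 and 3).

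Several members were read by more than 1 probe set, 133 in all for the 70 genes. Of the 48 other probe sets whose mean lay above the array median, 31 were called higher and 2 lower in Th17 recipients, and 36 and 2 in Th1 recipients. The share over all probe sets was not counted. Rpl17 had sets called both ways in both comparisons, at 0.31 for the set used (level 11.46) and -1.01 for another (level 3.63) in Th17 recipients. Rpl15, a large subunit protein, was 0.49 by the set used and -0.23 by another (adjusted p over probe sets = 0.0525), and in Th1 recipients 0.39 and -0.26 (adjusted p = 0.0320). Sets named for possible binding to several transcripts, 17 of the 70 used, had a median Th17 difference of 0.38. With sets of that kind and of the related kind shared by gene families left out, 62 members were still measured. Of these, 46 were called higher in Th17 recipients and 49 in Th1 recipients. Over all genes of that fit 2923 and 2714 were called higher and 4261 and 4009 lower.

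The titles of the samples carry a code of a letter and a number whose meaning the labels do not state. Within the 4 letters shared by Th17 recipients and naive wild-type mice the median difference of members was 0.31 to 0.48, and within the 5 numbers they share 0.40 to 0.49. For Th1 recipients it was 0.41 to 0.44 within 3 letters. The Th1 recipients shared no number with any other group. Th1 transfer and this number therefore cannot be told apart, against naive mice or against Th17 recipients. For Th17 recipients labelled Act1 KO against wild-type Th17 recipients it was -0.39 within the 1 letter they share and -0.47 to -0.33 within 4 numbers.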

How the data were processed

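Spinal cord RNA was measured on Affymetrix GeneChip HT-MG-430PM-96 arrays, which read the 3′ end of transcripts. The authors deposited log2 values for 45118 probe sets, made by RMA (background correction, normalization of all arrays to a common distribution and summary of probes). The version was not given in the sources used here, and a shift shared by all genes would not be visible in such values. Probe sets with 1 gene symbol (28898) were kept, those with several (551) or not listed (15669) were not used, and the set with the highest mean stood for each gene. One linear model without a block (limma 3.58.1, R 4.3.3) held all 24 arrays in 5 groups, with two-sided p-values adjusted by Benjamini-Hochberg over 17097 genes. Every gene was tested, with no filter on low values. Errors beside differences are standard errors of that fit. The fit was also run on simulated data in which genes were drawn independently. That run cannot show how calls behave for genes that vary together. Replicates are separate mice, and their number limits the precision.

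The members, gene lists and tests were chosen with earlier results of these data known. Named members are the 5 largest and 5 smallest of each main comparison, members called against the majority, up to 5 called in each direction in the genotype comparisons, the paralogs, stalk genes, Rps6, Rpsa, and members whose probe sets disagreed. From other lists up to 4 genes with the smallest adjusted p, and those against the list's direction, could be named. Alternatives covered scaling, choice of probe set, a filter on dim genes, variance model, array weights, blocks, exact Mann-Whitney tests, the t-test of the methods and each array left out. Fits without Th1 recipients 4 and 5, and without naive mice 4 and 5 labelled Act1 KO, were added after seeing the data. Sequences are from RefSeq.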

Additional observations from a re-analysis of the deposited data

Results flagged for a closer look

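Of 135 groups of named members and array means checked, 8 held an array far from the others of its group, where chance flags about 1 group in 20. Rpl31 read 11.14 in Th17 recipient 3 labelled Act1 KO against 10.82 to 10.86 in the others, and 10.31 in naive wild-type mouse 4 against 10.78 to 10.96. In naive mice labelled Act1 KO, Rpl3l read 3.04 in mouse 5 against 2.56 to 2.69, Rpl7l1 read 7.49 in mouse 5 against 6.92 to 7.04 and Rps24 read 11.18 in mouse 4 against 11.47 to 11.53. Rps15a read 5.33 in wild-type Th17 recipient 2 against 4.87 to 4.99, and 4.90 in Th1 recipient 2 against 5.25 to 5.39. Rps6 read 12.53 in Th1 recipient 3 against 12.31 to 12.34.

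The response of Th17 recipients differed between labelled genotypes by the interaction term for Rps27l (-1.15), Rplp0 (-1.13), Rps18 (-0.94), Rps20 (-0.92), Rpl22 (-0.90) and Rps15a (0.52), as a difference of the response in mice labelled Act1 KO minus that in wild-type mice.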

How the results depend on the processing

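With the arrays left out one at a time, members called higher in Th17 recipients than in naive wild-type mice ranged between 53 and 60 and called lower between 1 and 2, with a median of 0.39 to 0.44. For Th1 recipients the ranges were 57 to 62, 0 to 1 and 0.43 to 0.48, and for Th17 against Th1 recipients 0 to 1 higher, 0 to 0 lower and a median of -0.08 to -0.04. Within the genotype labelled Act1 KO (Th17 recipients against naive) they were 0 and 0 with a median of 0.03 to 0.09, and for naive mice labelled Act1 KO against wild-type naive mice 0 and 0 with a median of -0.05 to 0.03. For Th17 recipients labelled Act1 KO against wild-type Th17 recipients they were 1 to 2 higher and 43 to 51 lower with a median of -0.39 to -0.35, and for the interaction 0 to 1 higher and 33 to 42 lower with a median of -0.37 to -0.32.

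Of 299 other values of these counts and medians, 262 moved by less than 1.5 times or the spread between mice, counts of 0 that stayed 0 among them. Of the medians of comparisons with a called member 0 reversed, and the other values could not be marked as reversed. Without naive mice 4 and 5 labelled Act1 KO, the median of naive mice labelled Act1 KO against wild-type naive mice turned from -0.0144 to 0.0485. Centring on the median of all genes gave 31 higher, 4 lower and a median of 0.14 for Th17 recipients, 40, 3 and 0.20 for Th1 recipients, 8 higher, 22 lower and -0.087 for Th17 recipients labelled Act1 KO against wild-type, and 3, 13 and -0.084 for the interaction. In the same order the medians over all genes under this centring were -0.31, -0.31, 0.33 and 0.29. Quantile normalization anew gave a median of 0.35 for Th1 recipients. The count called lower in Th17 recipients was 2 under centring on the 75th percentile, quantile normalization, the probe set with the largest variance, the trended robust variance and the title number as a block. For Th1 recipients the largest-variance set gave 3 lower. Array weights called 1 member higher in the comparison of Th17 with Th1 recipients, and the mean of probe sets and the largest-variance set each called 1 higher in naive mice labelled Act1 KO than in wild-type ones. For Th17 recipients labelled Act1 KO against wild-type, 2 were higher under centring on the 75th percentile, quantile normalization, the filter on dim genes and the trended robust variance, 3 with the largest-variance set, and 0 with the title letter as a block, the methods' t-test and the exact Mann-Whitney test. For the interaction, 2 were higher with the largest-variance set and 0 with array weights, the replicate block, the letter block or without naive mice 4 and 5 labelled Act1 KO, and the letter block left 25 lower. Without those mice the median within the genotype labelled Act1 KO was -0.00104. The cause was not tested.

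Of 1729 values of named members, 39 lost their call, 17 gained one and 8 reversed. A turn of sign was counted as reversed only where the value was called in the main fit or in the alternative. Centring on the median of all genes gave -0.20 for Rpl3 in Th17 and -0.045 for Rps6 in Th1 recipients. The mean of probe sets gave -0.079 and -0.052 for Rpl17 in Th17 and Th1 recipients, and the largest-variance set -1.01 and -1.03 for Rpl17 and -0.23 and -0.26 for Rpl15, since these settings use other probe sets. Replicate numbers did not pair the mice (correlations of same-numbered deviations between -0.25 and 0.44). With the replicate block 59 members were called higher in Th17 and 62 in Th1 recipients and 52 lower in Th17 recipients labelled Act1 KO than in wild-type ones. The title number block could not be fitted for Th1 recipients, and the methods' tests have no form for the interaction.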
